A study of Homo sapiens with 4 samples.

Results

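Metallothioneins and a set of zinc transport genes were examined in RNA sequencing libraries of 2 human colorectal cancer cell lines. The set held 9 genes chosen by name: the metallothioneins MT1E, MT1F, MT1G, MT1X and MT2A, the metal sensor MTF1, the zinc exporter SLC30A1 and the zinc importers SLC39A4 and SLC39A10. They were found by gene identifier among 60658 genes in each library, and all 9 had a mean FPKM of at least 1 over the 4 libraries, the level required for comparison. FPKM is the number of fragments corrected for transcript length and library size. The lines were HT29 and LIM1215. For each line, 1 library came from cells given a negative control siRNA, with no gene targeted, and 1 library came from cells given an siRNA (si2) against TMEM161A, a gene for a transmembrane protein. Every group held 1 library, so the 3 comparisons below (the lines without knockdown, and the knockdown within each line) are given without a test or a replicate error. The lines were used as a pair in 1 test of the siRNA over both, given after them. Only 1 siRNA against TMEM161A was used, labelled si2 in both lines. Loss of TMEM161A and effects of that siRNA on other transcripts therefore cannot be told apart, also where the lines are alike.

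Metallothioneins are very small proteins, rich in cysteine, that bind zinc and copper ions and also trap cadmium. Free zinc in the cell is sensed by MTF1, a zinc finger transcription factor that enters the nucleus and binds short promoter sequences called metal response elements. Its classic targets are the metallothionein genes and SLC30A1, whose protein exports zinc across the plasma membrane. Proteins of the SLC30 family move zinc out of the cytosol and those of the SLC39 family move it in. SLC39A4 is the importer through which the intestine takes up dietary zinc, and its loss causes acrodermatitis enteropathica.

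The 5 metallothionein genes lie in 1 cluster on chromosome 16 (GRCh38, GENCODE release 44 annotation). MT2A (ENSG00000125148) runs from 56608584 to 56609497, MT1E (ENSG00000169715) from 56625475 to 56627112, MT1F (ENSG00000198417) from 56657731 to 56660698 and MT1X (ENSG00000187193) from 56682470 to 56684196, all on the plus strand. MT1G (ENSG00000125144), from 56666730 to 56668065, is on the minus strand. Their reading frames, taken from annotated transcripts with a complete frame (for MT1E not the canonical transcript), were between 88.7% (MT1F with MT1X) and 95.2% (MT1G with MT2A) identical. The reading frames of MT2A and MT1E, the most abundant members, are shown, 186 bases each from the start to the stop codon, to make this likeness visible. Capitals mark the 14 positions at which they differ.
MT2A: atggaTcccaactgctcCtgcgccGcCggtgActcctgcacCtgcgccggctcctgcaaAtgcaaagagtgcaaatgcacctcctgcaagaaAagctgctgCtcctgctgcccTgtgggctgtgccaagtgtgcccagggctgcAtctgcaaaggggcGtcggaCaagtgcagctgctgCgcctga
MT1E: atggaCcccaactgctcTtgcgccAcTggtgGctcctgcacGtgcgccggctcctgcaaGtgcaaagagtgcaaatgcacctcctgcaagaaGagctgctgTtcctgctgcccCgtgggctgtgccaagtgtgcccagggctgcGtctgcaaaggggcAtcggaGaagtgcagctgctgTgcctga

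Such similar and short transcripts make the FPKM of a single metallothionein less certain than that of a long gene. Of all stretches of 50 bases in the canonical transcript, 10.3% in MT1E, 6.12% in MT1F, 19.9% in MT1G, 11.1% in MT2A and 51.0% in MT1X also occur in a transcript of another gene. With stretches of 100 bases the share was 0% for 4 of them, and for MT1X it was 22.0%, shared with an overlapping long noncoding RNA that was listed at an FPKM of 0 in all 4 libraries. The MT1E shares are over a canonical transcript of 746 bases, while those of the other members have 401 to 425 bases. Shares for a shorter MT1E transcript were not computed. How fragments with several possible origins were assigned is not given in the sources used here. The summed FPKM of the 5 genes is given below because it is less exposed to such assignment.

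The upstream sequence of MT2A, with the 250 bases before its annotated start (RefSeq, GRCh38.p14, chr16:56608334-56608583, plus strand), is shown with those of MT1X (chr16:56682220-56682469, plus strand) and SLC30A1 (chr1:211579162-211579411, minus strand), since these are the classic targets of MTF1. Capitals mark the core of the metal response element, searched as TGCACNC and TGCGCNC on both strands.
MT2A: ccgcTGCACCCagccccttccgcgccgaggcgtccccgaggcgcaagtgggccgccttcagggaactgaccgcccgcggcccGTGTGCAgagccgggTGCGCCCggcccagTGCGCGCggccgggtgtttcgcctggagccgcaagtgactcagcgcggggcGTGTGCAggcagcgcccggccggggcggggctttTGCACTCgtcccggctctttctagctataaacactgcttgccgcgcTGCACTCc
MT1X: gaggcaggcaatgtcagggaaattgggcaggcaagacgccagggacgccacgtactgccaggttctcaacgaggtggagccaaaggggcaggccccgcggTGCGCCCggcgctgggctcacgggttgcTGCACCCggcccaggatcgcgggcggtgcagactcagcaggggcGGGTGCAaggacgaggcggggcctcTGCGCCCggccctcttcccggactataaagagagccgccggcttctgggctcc
SLC30A1: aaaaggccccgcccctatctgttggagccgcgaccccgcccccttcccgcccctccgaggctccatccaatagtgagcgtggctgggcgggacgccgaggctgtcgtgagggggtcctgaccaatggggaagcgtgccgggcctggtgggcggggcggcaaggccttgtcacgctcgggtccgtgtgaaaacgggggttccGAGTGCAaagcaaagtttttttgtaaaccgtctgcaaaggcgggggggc

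MT2A held 7 cores in this window, MT1X held 4 and SLC30A1 held 1, and none of the matches overlapped. Among 35114 RefSeq promoter windows of the same length, 24.8% held at least 1 core, 0.370% at least 4 and 0.0313% at least 7. The windows of MTF1 and both windows of SLC39A10 held none. A core of the antioxidant response element, searched as TGACNNNGC on both strands, was found 1 time each in MT2A, MT1X and SLC30A1 and in 10.9% of all windows with at least 1. These matches are letters in a window and not measured binding. Of the 9 genes, 5 were in the promoter table. MT1E, MT1F, MT1G and SLC39A4 were not.

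**Figure D1:**
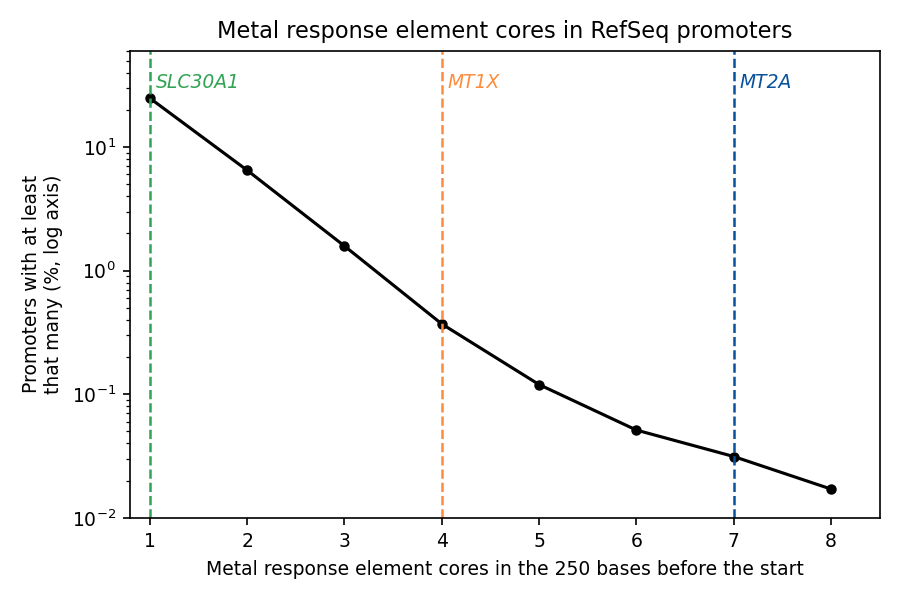
Share of 35114 RefSeq promoter windows (percent, log axis) that hold at least a given number of metal response element cores in the 250 bases before the start. Dashed lines mark the number in SLC30A1 (1), MT1X (4) and MT2A (7); at least 7 cores occurred in 0.0313% of windows.

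The libraries were checked before the genes were compared. The targeted gene, TMEM161A, was at 42.6 FPKM without and 4.64 FPKM with knockdown in HT29, and at 39.1 and 7.61 FPKM in LIM1215. By estimate, 18.1 to 21.6 fragments per kilobase of transcript gave an FPKM of 1. Transcripts of the mitochondrial genome held between 13.9% and 16.4% of the summed FPKM, and less in each knockdown than in its control. Of 10 intestinal epithelial markers, CDX1, VIL1, LGALS4 and KRT20 lay between 0 and 0.815 in the HT29 libraries and at 67.8 or more in LIM1215, while EPCAM, CDH1, KRT8, KRT18 and KRT19 were at 41.6 or more in all 4. CDX2, the remaining marker, was at 8.29 and 8.04 in HT29 and at 96.8 and 150 in LIM1215. The defining markers CDX1, VIL1, LGALS4 and KRT20 were thus at or near 0 in the cells labelled HT29, although HT29 is generally known to express several of them. The identity of these cultures was not tested, so each comparison of the lines is one of libraries labelled HT29 and LIM1215. In such bulk libraries fewer cells with a transcript and less of it per cell cannot be told apart. The blood cell markers PTPRC and CD3E were listed at 0 in all libraries, and the 5 blood and immune markers summed to FPKM values of 6.66 and 10.6 in HT29 and 59.2 and 74.3 in LIM1215, mostly CD68. The 8 fibroblast, muscle and endothelial markers summed to 22.7 and 24.3 in HT29 and 10.9 and 16.2 in LIM1215. The Paneth cell markers DEFA5, DEFA6, PRSS2 and REG3A, from a zinc-rich cell type of the gut, summed to 3.97 at most.

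MT2A and MT1E were the most abundant metallothioneins in both lines. MT2A, the form most widely expressed in human tissues, was at an FPKM of 334 with the control siRNA and 557 with the TMEM161A siRNA in HT29, against 318 and 385 in LIM1215. It was highest in the HT29 knockdown library, and the controls of the lines were close to each other. The FPKM of MT1E was 272 with the control siRNA and 485 with the TMEM161A siRNA in HT29, against 145 and 153 in LIM1215. Both HT29 values of MT1E lay above both LIM1215 values. Here and for the genes below, the share of all genes that separate the lines in this way was not counted. Among protein-coding genes MT2A ranked between 173rd and 285th by FPKM, depending on the library, and MT1E ranked 192nd to 301st in HT29 but 716th to 787th in LIM1215.

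MT1X was the next most abundant and the most even. Its FPKM was 53.0 with the control siRNA and 51.1 with the TMEM161A siRNA in HT29, against 61.6 and 61.1 in LIM1215. MT1F was low, at 4.33, 2.57, 8.42 and 7.32 in the same order, which corresponds to an estimated 20.6, 12.3, 34.0 and 33.1 fragments. MT1G was listed at 0 in the HT29 control and at 0.914 after knockdown, about 4.1 fragments. In LIM1215 it was at 3.8 and 3.72, about 14.3 and 15.7 fragments. MT1X, MT1F and MT1G were thus higher in both LIM1215 libraries than in either HT29 library. MT1F and MT1G were at levels where a few fragments decide the value.

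**Figure D2:**
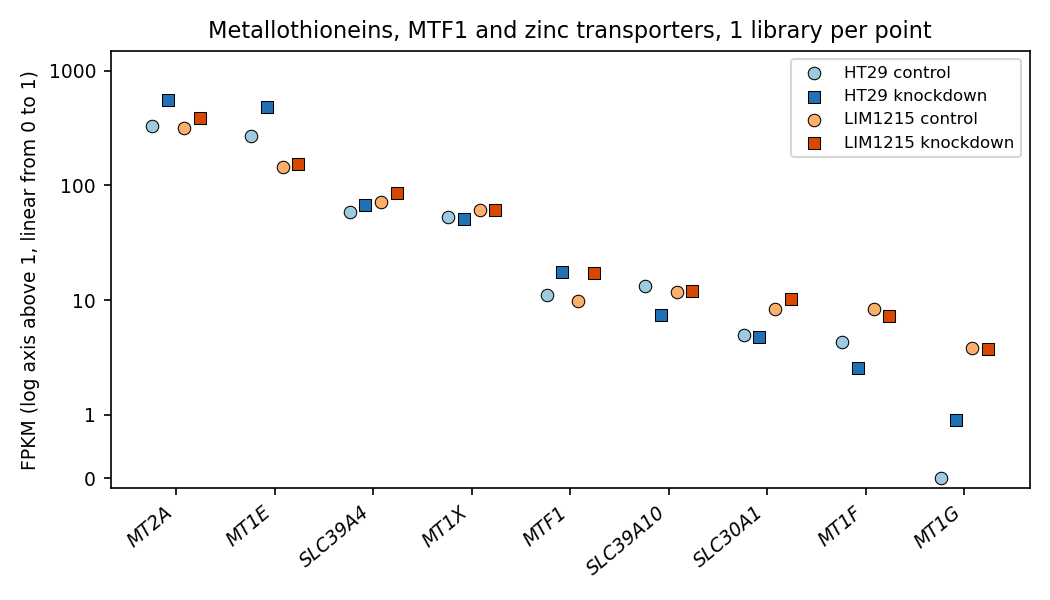
FPKM (log axis above 1, linear from 0 to 1) of the 9 genes in each of the 4 libraries, 1 library per point, ordered by mean FPKM. MT2A and MT1E stand above 100 in every library, while MT1G is listed at 0 in the HT29 control.

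The other metallothionein genes were mostly not detected. Of 10 further genes and pseudogenes of the family, 5 were listed at 0 in all 4 libraries, and none of the 10 was above 0 in HT29. MT1L, a pseudogene of the cluster, was at FPKM values of 38.3 (control) and 35.0 (knockdown) in LIM1215. Its annotated transcript of 186 bases is shorter than the fitted length offset of 202 bases, so this FPKM could not be turned into fragments, and all its stretches of 100 bases also occur in another annotated gene. MT1M was at 1.67 and 1.57 in the LIM1215 libraries. The genes that flank the cluster were expressed in both lines, BBS2 at FPKM values between 19.3 and 28.9 and NUP93 between 37.8 and 51.7.

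The first comparison asked how the lines differ without knockdown. Ratios were taken on the log2 scale after a pseudocount of 1 was added to each FPKM. Between the controls 1 of the 9 genes, MT1G, was past 2-fold, and it was higher in LIM1215. Of all 14803 genes compared, 12% were past 2-fold higher and 7.42% lower, together 19.4%. With FPKM rescaled to a common sum, 9.98% were higher and 9.89% lower. MT1G passed the level for comparison through LIM1215 alone, where it was detected in both libraries, so it had to differ, and no ratio is given against a value of 0. At a threshold of 1.5-fold, MT1F, MT1G and SLC30A1 were higher in LIM1215 and MT1E was lower, against 21.8% of all genes higher and 16.3% lower. SLC30A1 was below 1.5-fold under each of the 3 other scalings (log2 ratio 0.49 to 0.52) and with a pseudocount of 5 (0.42), and MT1F was below it with a pseudocount of 5 (0.52). The median log2 ratio of the 9 genes was 0.21, beside 0.05 for all genes.

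MT1E in the LIM1215 control was at 0.533 times its HT29 level, with a 95% counting interval of 0.50 to 0.567, a log2 ratio of -0.90. Its log2 ratio was between -1.08 and -0.89 under the alternatives tried, and it was past 2-fold under each of 3 other scalings of the libraries. MT2A was at 0.954 times the HT29 level (0.882 to 1.03) and MT1X at 1.16 times (0.962 to 1.40), and both intervals include no difference. MT1F was at 1.94 times, with a wide interval of 1.09 to 3.54. These intervals, from estimated fragments by the exact Clopper-Pearson method, cover counting error alone and not the variation between cultures. For MT1E the estimate used the canonical transcript of 746 bases. If a shorter transcript was expressed, its fragments are fewer and its intervals, and those of the sum below, are wider. The metallothioneins have 3 to 5 annotated transcripts each, so none was among the genes with 1 transcript from which fragments were estimated.

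The mix of metallothioneins and their sum were compared as well. Of the summed metallothionein FPKM in the control libraries, MT1E made up 41.1% in HT29 and 27.0% in LIM1215, and MT2A 50.3% and 59.3%. The ratio of MT2A to MT1E was 1.23 and 1.15 in the HT29 control and knockdown libraries and 2.19 and 2.51 in those of LIM1215. The sum was 664 without knockdown in HT29 and 537 in LIM1215, 0.810 times the HT29 level (counting interval 0.773 to 0.848).

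**Figure D3:**
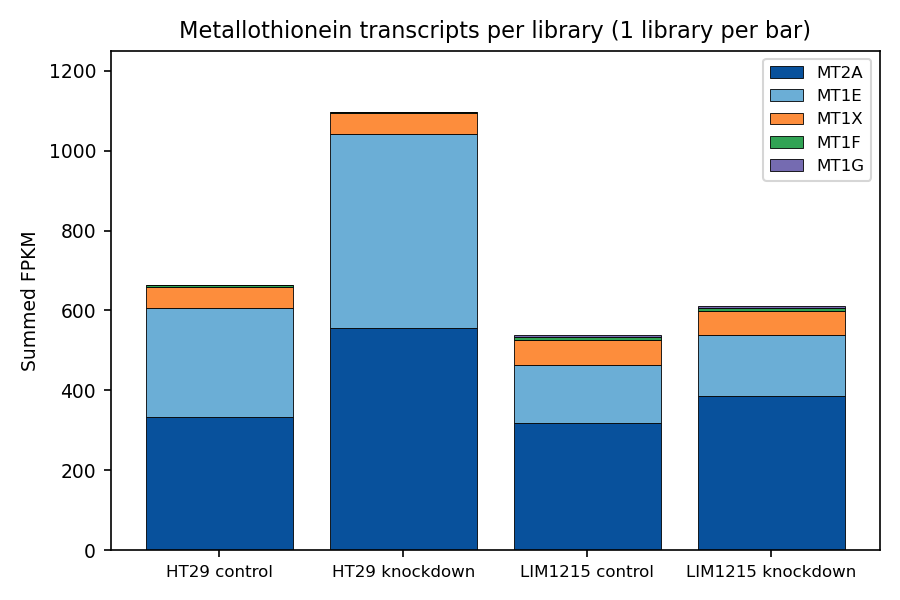
Summed FPKM of MT2A, MT1E, MT1X, MT1F and MT1G in each library, stacked by gene. The HT29 knockdown library reaches 1097 against 664 in its control, and the LIM1215 knockdown library 610 against 537.

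The second comparison asked how the genes differ after TMEM161A knockdown in HT29. None of the 9 genes was past 2-fold in the HT29 knockdown library, against 3.8% of all genes (1.85% higher and 1.95% lower). At 1.5-fold, MT1E, MT2A, MTF1 and MT1G were higher, the last on about 4.1 fragments, against 7.87% of all genes, and SLC39A10 was lower, against 6.91%. Among 365 protein-coding genes with a canonical transcript under 750 bases, 9.04% were higher and 4.66% lower at 1.5-fold in HT29. That limit takes in MT1E, at 746 bases, while the other metallothioneins have 401 to 425 bases. Genes as short as those were not set apart.

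MT1E was at 1.78 times its control level in the HT29 knockdown library (counting interval 1.71 to 1.86; log2 ratio 0.83), and 3.30% of all genes had a ratio as high. MT2A was at 1.67 times (1.56 to 1.78; log2 ratio 0.74), which 4.53% of genes reached. MT1X was at 0.963 times with an interval of 0.797 to 1.16 that includes no difference. MT1F was at 0.592 times, with an interval from 0.267 to 1.26 that includes no difference, and MT1G was listed at 0 in the control. The log2 ratio of MT1F, -0.581, was just short of the 1.5-fold threshold of 0.585 in size. It was past that threshold with a pseudocount of 0.1 (-0.73) and under each of the 3 other scalings (-0.62 to -0.67). With a pseudocount of 5 it was -0.30. The summed metallothionein FPKM went from 664 to 1097, or 1.65 times (1.60 to 1.71), and from 0.0844% to 0.132% of all FPKM.

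The third comparison repeated the knockdown in LIM1215, which has its own control. None of the 9 genes was past 2-fold, against 3.46% of all genes (1.68% higher and 1.78% lower), and at 1.5-fold MTF1 alone was higher, against 6.63% of all genes, and none was lower, against 6.18%. MT2A was at 1.21 times its control level (1.12 to 1.30; log2 ratio 0.27). MT1E was at 1.06 times (0.985 to 1.14), MT1X at 0.992 times (0.826 to 1.19), MT1F at 0.869 times (0.522 to 1.44) and MT1G at 0.979 times (0.447 to 2.16). The intervals of these 4 genes include no difference. The sum was 1.14 times the control level (1.08 to 1.19), at 610 against 537. The LIM1215 control also served in the comparison of the lines, so these comparisons are not independent.

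The size of the difference was thus larger in HT29 than in LIM1215 for MT1E and MT2A, by 0.75 and 0.47 in log2 ratio. The counting intervals of the lines do not overlap for either gene, but they cover counting error alone and are narrow for abundant genes. For how many of all genes they do not overlap was not counted. Whether the lines respond differently was not tested.

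The siRNA was also tested over both lines at once, with each knockdown library set against the control of its own line. This limma fit on log2(FPKM + 1) takes the line as a block, assumes the same effect in both lines and has 1 residual degree of freedom per gene, to which limma adds information from all genes. None of the 9 genes passed a Benjamini-Hochberg adjusted p of 0.05 over all genes, against 1.95% of the 14803 genes tested (288). At an unadjusted p under 0.05, 3 of the 9 were higher, MTF1, MT2A and MT1E, and none was lower, against 10.6% and 8.84% of all genes. MTF1 had the smallest adjusted p of the 9, 0.0712 by limma, at a log2 difference of 0.69 (SE 0.15), and was higher in both lines. MT2A followed at 0.50 (SE 0.13; limma adjusted p 0.106) and MT1E at 0.46 (SE 0.17; limma adjusted p 0.217). The limma adjusted p of the other 6 genes lay between 0.333 and 0.910.

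MTF1 (ENSG00000188786, chromosome 1, 37809574 to 37859592, minus strand), the sensor that acts on metallothionein promoters, was the only gene of the 9 that was higher by 1.5-fold in both knockdown libraries, a call that is lost in HT29 under 3 alternatives. Its FPKM was 11.0 with the control siRNA and 17.6 with the TMEM161A siRNA in HT29, against 9.83 and 17.1 in LIM1215. Both knockdown values lay above both controls, an order whose share among all genes was not counted. The ratio to control was 1.60 in HT29 (1.51 to 1.70; log2 ratio 0.63) and 1.74 in LIM1215 (1.63 to 1.86; log2 ratio 0.74). Against the 1.5-fold threshold of 0.58 on the log2 scale, the HT29 value was 0.56 with a common sum, 0.53 with a common sum without the mitochondrial genome and 0.50 with a pseudocount of 5, where the LIM1215 value was also below it. A ratio as high was found in 6.59% of all genes in HT29 and in 3.56% in LIM1215, and 278 genes, or 1.88%, were higher by 1.5-fold in both lines. With a transcript of 7937 bases, MTF1 rested on 1378 to 2939 estimated fragments.

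**Figure D4:**
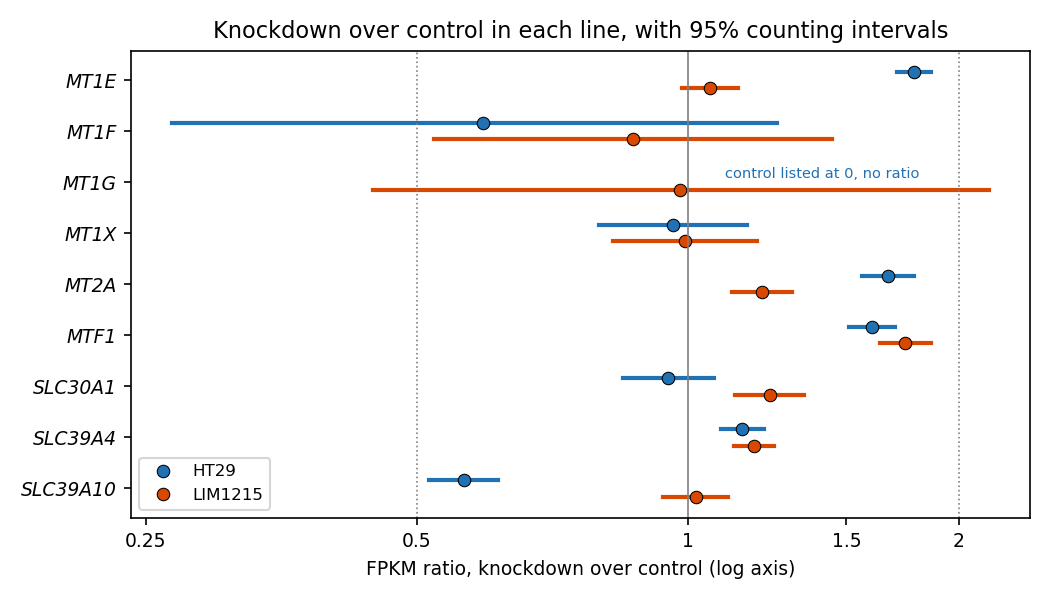
FPKM in the knockdown library over that in the control library (log axis) for each of the 9 genes in HT29 and LIM1215, with 95% counting intervals as bars and dotted lines at 2-fold. MTF1 is at 1.60 and 1.74, MT1E and MT2A are at 1.78 and 1.67 in HT29, and SLC39A10 is at 0.564 in HT29.

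SLC30A1 (ENSG00000170385, chromosome 1, 211571568 to 211579161, minus strand), the plasma membrane zinc exporter and the other classic MTF1 target, was expressed at a low level. Its FPKM was 4.95 with the control siRNA and 4.71 with the TMEM161A siRNA in HT29, against 8.33 and 10.3 in LIM1215. Both LIM1215 values were above both HT29 values, with the LIM1215 control at 1.68 times the HT29 control (1.51 to 1.87). The ratio of knockdown to control was 0.951 in HT29 (0.847 to 1.07) and 1.23 in LIM1215 (1.13 to 1.35).

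SLC39A4 (ENSG00000147804, chromosome 8), the intestinal zinc importer, was the most abundant transporter of the set. Its FPKM was 58.5 with the control siRNA and 67.2 with the TMEM161A siRNA in HT29, against 72.1 and 85.4 in LIM1215. Both LIM1215 values of SLC39A4 were above both HT29 values. SLC39A4 was slightly higher in both knockdown libraries, at 1.15 times in HT29 (1.09 to 1.21) and 1.18 times in LIM1215 (1.12 to 1.25). Differences of this size were common, since a ratio as high was found in 32.5% of all genes in HT29 and in 25.5% in LIM1215. A long noncoding RNA on the opposite strand overlaps the gene, at an FPKM of 0.499 to 2.34.

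SLC39A10 (ENSG00000196950, chromosome 2, 195575977 to 195737702, plus strand), a plasma membrane zinc importer, was the only gene of the 9 past 1.5-fold lower after knockdown in HT29, where MT1F fell just short. With a pseudocount of 5 the SLC39A10 value was also short of it (log2 ratio -0.55). Its FPKM was 13.2 with the control siRNA and 7.44 with the TMEM161A siRNA in HT29, against 11.8 and 12.0 in LIM1215. The HT29 knockdown library stood below the other libraries, which were close to each other. The ratio to control was 0.564 in HT29 (0.516 to 0.615; log2 ratio -0.75), and 4.14% of all genes were as low. In LIM1215 it was 1.02 (0.939 to 1.11; log2 ratio 0.03, which turned to -0.01 under 1 other scaling).

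The whole transporter families were set beside these genes. Of 10 SLC30 exporters, 6 including SLC30A1 were expressed well enough to be compared. Their log2 ratio was below 0 in 6 of 6 in HT29 and in 5 of 6 in LIM1215, where SLC30A1 was the exception. Of all genes, 44.4% and 46.4% were below 0. In HT29 the intervals of SLC30A1 and of SLC30A5 (0.990 times control, 0.941 to 1.04) included no difference. The medians were -0.20 and -0.23, beside 0.04 and 0.02 for all genes, and none was past 2-fold. Of 14 SLC39 importers, 12 were compared. Above 0 were 8 of 12 in HT29 and 9 of 12 in LIM1215, beside 7975 and 7861 of all 14803 genes. The importer medians were 0.05 and 0.15, and none was past 2-fold after knockdown. The most abundant importer was SLC39A7, which releases zinc from the endoplasmic reticulum, at FPKM values of 123 and 104 in HT29 (control, then knockdown) and 122 and 105 in LIM1215. SLC39A14, an importer of zinc and non-transferrin iron, was at 84.4, 51.7, 72.1 and 55.7 in the same order, or 0.612 times control in HT29 (0.591 to 0.634) and 0.773 times in LIM1215 (0.745 to 0.803).

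Among the exporters, SLC30A5 and SLC30A9 were the most abundant in every library, at 35.7 to 41.5 and 27.9 to 49.8. SLC30A3, an exporter best known from synaptic vesicles, was past 2-fold between the controls, at an FPKM of 10.8 in HT29 and 3.17 in LIM1215. Among the importers, SLC39A1 and SLC39A5 were past 2-fold in the other direction, SLC39A1 with control FPKM values of 40.2 in HT29 and 83.2 in LIM1215 and SLC39A5 with 0.137 and 3.24.

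**Figure D5:**
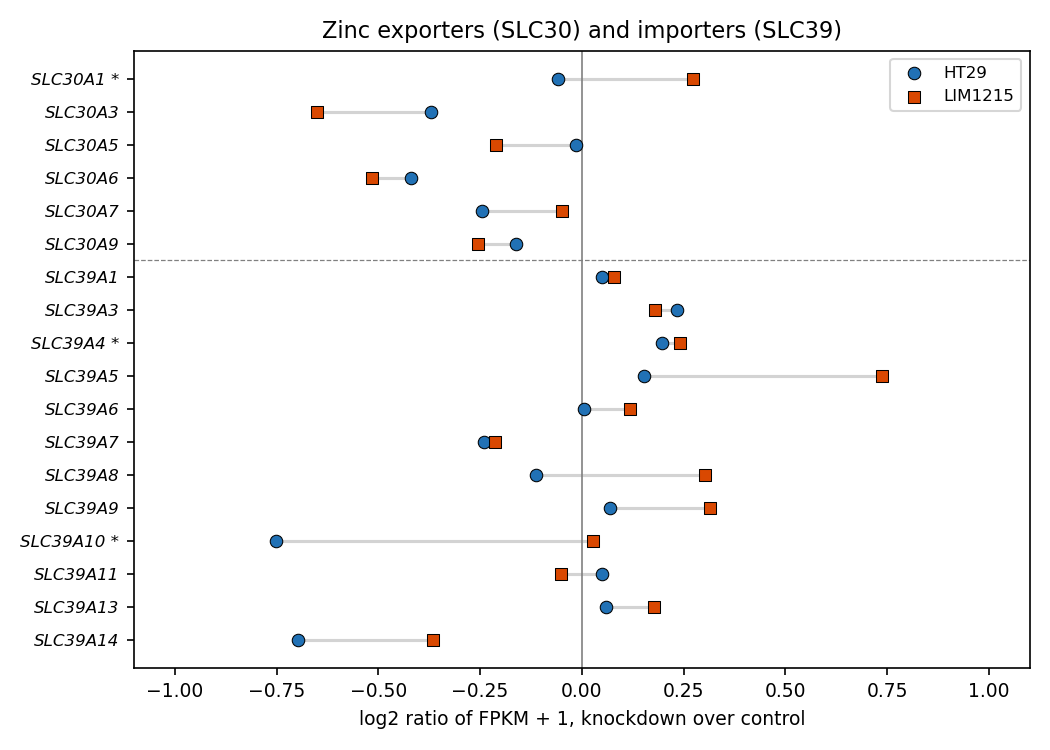
Log2 ratio of FPKM plus 1, knockdown over control, for the 6 SLC30 exporters and 12 SLC39 importers compared, in HT29 (circles) and LIM1215 (squares); asterisks mark the genes of the set. The exporters lie at or below 0 except SLC30A1 in LIM1215, and SLC39A10 and SLC39A14 in HT29 lie lowest among the importers.

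Genes of other metals and of the stress responses that also act on metallothionein genes were compared as lists. Of 10 copper genes, 9 were matched and compared. ATP7A, a pump that moves copper out of the cell, was past 2-fold lower in both knockdown libraries. In HT29 its FPKM was 2.70 without and 0.584 with knockdown, 0.216 times control (0.173 to 0.267), and 3.01 and 0.590 in LIM1215, 0.196 times control (0.156 to 0.244). ATP7B, the related pump, had control FPKM values of 2.73 in HT29 and 12.2 in LIM1215. The medians of the copper list were -0.01 in HT29 and 0.05 in LIM1215, and the most abundant genes were the copper chaperones ATOX1 (FPKM 93.4 to 151) and COX17 (55.6 to 69.4).

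Of 10 iron genes, 9 were compared, with medians of -0.22 in HT29 and 0.05 in LIM1215. SLC11A2, the intestinal importer of iron and other divalent metals, was past 2-fold lower in the HT29 knockdown library, at 0.454 times its control FPKM of 33.0 (0.424 to 0.485), and in LIM1215 it was at 26.0 against 34.2. The ferritin chain FTH1 was at 2366 and 3426 in HT29 and at 3130 and 4319 in LIM1215, and the ferritin chain FTL at 2966 and 2689 and at 3765 and 3534, control before knockdown. Both chains have many near-identical pseudogene copies, so their values are uncertain. FTH1 was at 1.45 times control in HT29 (1.43 to 1.46) and 1.38 times in LIM1215 (1.37 to 1.39).

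Of 10 stress genes that metals induce outside the family, none was past 2-fold in any comparison, and their medians after knockdown were -0.12 in HT29 and -0.34 in LIM1215. They too went in both directions, as the genes named next, singled out after their values were seen, show. GCLM, a subunit of the first enzyme of glutathione synthesis, was at 0.484 times control in HT29 (0.451 to 0.520) and 0.546 times in LIM1215 (0.509 to 0.585). This is past 2-fold in HT29 as a plain ratio and just short of it after the pseudocount (log2 ratio -0.98). The heat shock genes HSPA1B, DNAJB1 and HSPA1A were at 1.64, 1.46 and 1.42 times control in HT29 and at 1.32, 1.18 and 1.44 times in LIM1215, where HSPA1A and HSPA1B are near-identical copies. SQSTM1, a selective autophagy receptor, was the most abundant, at FPKM values of 494 and 484 in HT29 (control, then knockdown) and 543 and 444 in LIM1215. TXNRD1, a thioredoxin reductase, was next, at 378 and 283 in HT29 and 207 and 149 in LIM1215. Glucocorticoids also induce MT2A. Of 8 genes for the glucocorticoid receptor and its classic targets, 7 were compared, none was past 2-fold after knockdown, and the medians were 0.00 in HT29 and 0.06 in LIM1215. The genes went in both directions. DUSP1, SGK1 and TSC22D3, singled out after their values were seen, were at 1.34, 1.41 and 1.18 times control in HT29. In LIM1215 they were at 1.67, 1.53 and 1.5 times, and their counting intervals were above 1 in both lines. Below control in HT29 were PER1 at 0.802 times (0.774 to 0.832), the receptor gene NR3C1 at 0.838 times (0.774 to 0.908) and FKBP5 at 0.919 times (0.859 to 0.983). In LIM1215 the intervals of PER1, NR3C1 and FKBP5 included no difference. KLF9 was at 0.995 times in HT29 (0.829 to 1.19). Between the controls, NR3C1, the receptor gene, was at 9.63 in HT29 and 1.89 in LIM1215, and its targets FKBP5 (24 and 6.37), PER1 (70.1 and 29.7) and KLF9 (2.26 and 0.487) were also past 2-fold lower in LIM1215. TSC22D3, another target and the most abundant after PER1, was higher in LIM1215, at 48.4 against 24.9.

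The mean profile of the 5 metallothioneins over the 4 libraries, on the centred log2 scale, was compared with those of 9884 protein-coding genes with a mean FPKM of at least 5. The nearest were MZT2A, RPS19BP1, FLAD1, CASP9 and DPH1, with root mean square differences of 0.014 to 0.019 in log2 units against a median of 0.304. That mean profile was lowest in the HT29 control, at -0.33, and at 0.04, 0.13 and 0.16 in the HT29 knockdown, LIM1215 control and LIM1215 knockdown libraries. MT1G, listed at 0 in the first, set these neighbours. Without MT1G, an alternative added after the data were seen, the profile was highest in the HT29 knockdown, at 0.16, against -0.08, -0.06 and -0.02 in the HT29 control, LIM1215 control and LIM1215 knockdown libraries. The nearest genes were then RPL4, POLR3E, ZNF410, OGT and BRPF1, with differences of 0.0070 to 0.0147, and 0 of the 5 were among the earlier 5. Both profiles average genes whose HT29 log2 ratios went in both directions (MT1E 0.83, MT2A 0.74, MT1X -0.05, MT1F -0.58). The nearest genes are thus near an average, and their likeness to a single metallothionein was not compared. Over 4 libraries such likeness is a description.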

How the data were processed

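Total RNA of 4 cell cultures was sequenced after stranded mRNA library preparation, per the labels' protocols. Each library was deposited by the authors as a table of FPKM per Ensembl gene. HISAT2 2.1.0, SAMtools 1.20, Cufflinks 2.2.1, Cuffdiff and the build GRCh38 are named in the submitters' processing notes; the annotation, filters, scaling across libraries and treatment of shared fragments are not given in the sources used here. Symbols, positions and transcripts came from GENCODE release 44, matched by identifier for 56550 of 60658 genes. Fold changes are log2(FPKM + 1) differences, which understate low genes, over the 14803 genes with a mean FPKM of at least 1; unlogged ratios carry 95% counting intervals. Fragments were estimated from the steps of low FPKM values of genes with 1 transcript of at least 500 bases; 74.6% to 75.5% of those values lay within 0.03 of a whole number, at a length offset of 202 bases. The fits and the ratios were tested on simulated data. Groups followed the sample titles. Genes named by rule were the 9 members, TMEM161A, list genes past 2-fold or among the 2 highest of each of 7 lists, and the 5 most similar profiles. The cell type markers, BBS2, NUP93, MT1XP1, CARS2 and the nearest profiles without MT1G were named outside that rule. GCLM, HSPA1A, HSPA1B, DNAJB1, DUSP1 and SGK1 were named after their values were seen. The members and lists were chosen with earlier results of these data known. The siRNA effect over both lines was tested with limma 3.58.1 (R 4.3.3), the lines pairing the libraries by the labels, as an alternative added after the data were seen. Other alternatives were other pseudocounts, filters, scalings and a 1.5-fold threshold. Python 3.11.15, pandas 2.3.3, scipy 1.17.1 and Biopython 1.88 were used.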

Additional observations from a re-analysis of the deposited data

Results flagged for a closer look

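For several genes and lists the log2 ratio of knockdown to control had opposite signs in the lines, HT29 named before LIM1215 throughout. Each group had 1 library, so the difference, given as LIM1215 minus HT29, was not tested. SLC39A10 had -0.75 and 0.03, a difference of 0.78. SLC30A1 had -0.06 and 0.27, a difference of 0.33, and its HT29 counting interval included no difference. MT1G had 0.94 and -0.02, a difference of -0.96, on about 4.1 fragments in the HT29 knockdown library and a control listed at 0. The median of the iron handling list was -0.22 and 0.05, a difference of 0.27, and that of the copper handling list -0.01 and 0.05, a difference of 0.061. KLF9, which was also the median gene of the glucocorticoid list in both lines, had -0.005 and 0.064, a difference of 0.069.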

How the results depend on the processing

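The count of genes past 2-fold between the controls was 1 (MT1G). It was 0 with a pseudocount of 5 or a mean FPKM of at least 5, which left 8 genes, 2 (MT1G and MT1E) under each of the 3 other scalings, and 4 at 1.5-fold. The count in HT29 was 0; it was 1 (MT1G) with a pseudocount of 0.1 and 5 at 1.5-fold. The count in LIM1215 was 0 and became 1 (MTF1) at 1.5-fold. The summed metallothionein ratio between the controls, 0.810, was 0.714 with FPKM rescaled to a common sum, 0.730 with upper quartile scaling, 0.719 with a common sum without the mitochondrial genome and 0.870 with the other metallothioneins added. The HT29 knockdown ratio of 1.65 was 1.56 with a common sum and 1.53 without the mitochondrial genome. Rescaling to a common sum moved the median of all genes between the controls from 0.05 to -0.11 and the genes past 2-fold from 12.0% higher and 7.42% lower to 9.98% and 9.89%. Of 27 log2 ratios of single genes, 1 (SLC39A10 in LIM1215) changed sign under an alternative. Of 162 alternative values, 39 were counted as outside the counting interval. These include all 6 of MT1G between the controls and all 6 of MT1G in HT29. Those MT1G ratios have no interval, because the HT29 control was listed at 0. MT1F and MT1G are limited by depth, at 34.0 fragments or fewer per library. With the line as a block, the limma test of the siRNA over both lines, added after the data were seen, called 0 of the 9 genes. The loss of 1.5-fold calls of MTF1, SLC30A1, SLC39A10 and MT1F under alternatives is given with those genes, as is the gain of a lower call of MT1F in HT29.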

Other observations

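Genes were also grouped by the number of metal response element cores in the 250 bases before their start, a grouping chosen after the values were seen and described without a test. A gene with several windows was placed by the window with the most cores. Of 74 genes with at least 4 cores and a mean FPKM of at least 1, MT2A and MT1X among them, 10 were higher by 1.5-fold after knockdown in HT29 (13.5%) and 3 were lower (4.05%). MT2A was itself among those 10, so this share is not separate from its own value. Over all 10506 genes with a window, 6.52% were higher and 6.06% lower. In LIM1215, 6 of the 74 were higher (8.11%) and 3 lower (4.05%), beside 5.09% and 5.07% of all. The median log2 ratio of the 74 genes was 0.10 in HT29 and 0.02 in LIM1215, beside 0.03 and 0.02 over all. For genes with 3 cores the share higher in HT29 was 5.49%, so it did not increase steadily with the number of cores. CARS2, a mitochondrial cysteinyl-tRNA synthetase, had the most cores, 12, with HT29 FPKM values of 33.2 (control) and 29.3 (knockdown). MT1XP1, a metallothionein pseudogene on chromosome 1, was listed at 6.2 FPKM in the HT29 control library and at 0 in the other 3 libraries. Its span, 16241213 to 16241398, is shorter than the fitted length offset of 202 bases, so this FPKM could not be turned into fragments. MT1G, MT1X and MT2A share stretches of 50 bases with it, and whether its value came from their fragments was not tested.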
